A study of Mus musculus with 6 samples.

Results

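The genes described here encode the carriers that move organic anions, organic cations and bile acids across cell membranes, and the ABC (ATP-binding cassette) transporters. They were taken as the protein-coding mouse genes whose GENCODE symbol begins with Slco, Slc10a or Slc22a, or with Abca to Abcg, followed by a digit, and that had at least 10 deposited counts in 1 library. Of 96 genes with such a symbol 72 met this minimum, out of 54446 genes in the table. They comprise 8 Slco, 6 Slc10a, 16 Slc22a, 11 Abca, 9 Abcb, 9 Abcc, 4 Abcd, 1 Abce, 3 Abcf and 5 Abcg genes. The other 24 genes, among them the kidney carriers Slc22a6 and Slc22a8, stayed below 10 counts in every library, and 19 of them had 0 counts throughout.

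Poly-A RNA from liver cells of mice was sequenced at weeks 0, 2 and 7 of the MET/CAT and SB transposase treatment given in the title of the series, with 2 libraries a week. The labels describe a mixed FVB/N and C57BL line whose C57BL number differs in every label, and they do not expand CAT, say how the treatment was delivered, or say whether libraries of a week came from separate mice, so the p-values measure the spread between these libraries, which may be technical. The week 2 libraries carried the RNA of female cells and the others that of male cells. Counts of Xist were 10 and 15 in week 0 libraries, 13236 and 12804 in week 2 libraries and 0 in week 7 libraries, and the summed counts of 4 Y-linked genes were 0 in both week 2 libraries. No mice of matching age without treatment are among the libraries, so treatment, age and, for week 2, sex cannot be told apart. Library totals ran from 49353453 to 58434358 counts. Hepatocyte markers fixed for this check (Alb, Apoa1, Ttr, Serpina1c, Cps1 and Hnf4a) were all detected in every library. Their summed level, mostly Alb, was 78121 to 115302 CPM, where CPM are deposited counts scaled to a common library size by TMM. At week 7 against week 0, 1 of them (Cps1) was called higher and 3 (Alb, Ttr and Serpina1c) lower. At week 2 against week 0, 1 (Alb) was called higher and 4 (Apoa1, Ttr, Serpina1c and Hnf4a) lower. All 6 markers of Kupffer cells, the macrophages of the liver, were called lower at week 7 against week 0, with a summed level of 242 and 239.7 CPM at week 7 and 339 and 334 CPM at week 0, and 4 of the 6 were called higher at week 2 against week 0. The part of hepatocytes and of Kupffer cells in the transporter values was not tested.

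Hepatocytes take bile acids, bilirubin, hormones and drugs from sinusoidal blood through carriers of the basolateral membrane, of which the sodium-dependent bile acid carrier Slc10a1, the Slco carriers and the Slc22a organic ion carriers are the main families. ABC transporters, which spend ATP, then export bile acids, phospholipid, sterols and conjugates across the canalicular membrane into bile, while other members of the Abcc family return conjugates to blood. Further ABC proteins work inside the cell, in peroxisomes, in mitochondria and at the ribosome. In mouse liver several of these carriers are known to differ between the sexes, for example Slco1a1, which is higher in males.

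The genes Slc22a26, Slc22a27, Slc22a28, Slc22a29 and Slc22a30 stand side by side on chromosome 19, in that order. They are rodent organic anion carrier genes. The promoters of Slc22a28 and Slc22a29 were each aligned with that of Slc22a30 and are like it. Those of Slc22a26 and Slc22a27 were not aligned. The 3 promoters are shown because Slc22a30 and Slc22a28 both fell at both later weeks against week 0, while Slc22a29 rose. The stretches below are from RefSeq (GRCm38.p6, minus strand, written 5′ to 3′), at chr19:8405130-8405312 for Slc22a30, chr19:8132001-8132182 for Slc22a28 and chr19:8218901-8219079 for Slc22a29. Capitals mark bases that differ from Slc22a30 or are absent from it.
Slc22a30: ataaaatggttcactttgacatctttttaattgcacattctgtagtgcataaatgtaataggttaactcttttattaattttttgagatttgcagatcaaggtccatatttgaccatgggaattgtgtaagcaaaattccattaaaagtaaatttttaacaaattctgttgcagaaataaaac
Slc22a28: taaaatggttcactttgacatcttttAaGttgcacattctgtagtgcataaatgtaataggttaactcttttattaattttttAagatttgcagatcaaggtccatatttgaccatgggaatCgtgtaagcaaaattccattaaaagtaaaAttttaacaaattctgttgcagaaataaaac
Slc22a29: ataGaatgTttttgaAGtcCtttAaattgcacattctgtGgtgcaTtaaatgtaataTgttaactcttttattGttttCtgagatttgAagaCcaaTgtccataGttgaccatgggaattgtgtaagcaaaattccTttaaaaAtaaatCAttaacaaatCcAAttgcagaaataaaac
The Slc22a28 stretch matched that of Slc22a30 at 177 of 182 aligned bases (97.3%), and the Slc22a29 stretch at 157 of 178 (88.2%), with 1 base absent from Slc22a30 and 5 bases of Slc22a30 missing. The letters of 4 motifs were searched in the 250 bases before each start. CTTTGA, the core recognised by TCF/LEF factors of the Wnt pathway, was found on the given strand at 2 places for Slc22a30 and for Slc22a28. The place further from the start, at 220 and 214 bases before it, lies outside the stretches shown. CTTTGA was found at 1 place for Slc22a27 and at none for Slc22a29 and Slc22a26. Among these genes GATAA and AGGTCA were each found at 1 place for Slc22a27 only. TTCNNNGAA, a STAT5 motif, was found at 1 place for Slc22a26 only. Over both strands CTTTGA was in 13.83% of all 32851 promoter windows of that length and in 21.21% of the 66 windows of transporter genes. A match of letters is a description and does not show binding.

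Slc22a30 (ENSMUSG00000052562) had 210.2 and 207 CPM at week 0, 134 and 133 CPM at week 2, and 127 and 134 CPM at week 7. Slc22a28 (ENSMUSG00000063590) had 21.3 and 23.2 CPM at week 0, 7.80 and 5.65 CPM at week 2, and 12.8 and 15.6 CPM at week 7. Slc22a29 (ENSMUSG00000075044) had 1.16 and 0.954 CPM at week 0, 4.12 and 5.33 CPM at week 2, and 2.41 and 2.29 CPM at week 7. The weeks did not overlap for Slc22a28 and Slc22a29, which stood in opposite orders, and for Slc22a30 both later weeks lay below week 0.

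At week 7 against week 0 Slc22a30 fell 1.60-fold (log2 fold change -0.68 ± 0.05 SE, edgeR adjusted p = 4.28e-05) and Slc22a28 fell 1.57-fold (adjusted p = 0.0422), while Slc22a29 rose 2.22-fold (adjusted p = 0.0281). Slc22a28 was no longer called without week 0 replicate 1 (adjusted p = 0.102) or 2 (0.168) and without week 7 replicate 1 (0.218) or 2 (0.0675). The Slc22a29 call was lost with limma voom (0.106), with only the 4 libraries compared (0.0707), without either week 0 library (0.0661 and 0.122), without week 2 replicate 2 (0.0541) and without either week 7 library (0.101 and 0.0773). The 3 genes share parts of their transcript sequences with each other. Of the 100-base windows of their transcripts, 37.01% for Slc22a28, 21.05% for Slc22a30 and 7.51% for Slc22a29 also occur in transcripts of other genes, so how reads were divided among them is uncertain.

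Slc22a26 and Slc22a27 were close to 0 CPM at week 0. Slc22a26 (ENSMUSG00000053303) had 1.00 and 0.933 CPM at week 0, 223 and 215 CPM at week 2, and 0.241 and 0.156 CPM at week 7. Slc22a27 (ENSMUSG00000067656) had 0.320 and 0.166 CPM at week 0, 32.0 and 31.1 CPM at week 2, and 2.43 and 3.29 CPM at week 7. Both were thus highest in the female-typed week 2 libraries, by log2 fold changes of 7.82 (adjusted p = 6.73e-10) and 7.00 (adjusted p = 3.78e-07) over week 0. Between the male-typed weeks they moved apart. Slc22a27 rose 11.7-fold at week 7, from a base of only 16 and 8 counts at week 0 (adjusted p = 8.91e-05). Slc22a26 fell 4.87-fold, with 13 and 8 counts at week 7 against 50 and 45 at week 0 (adjusted p = 5.43e-05), a call that was lost with limma voom (0.113) and with only the 4 libraries compared (0.0953). In the low-count filter applied before testing, Slc22a27 met the minimum in both libraries of weeks 2 and 7 only, where it was higher. Slc22a26 met it in both libraries of weeks 0 and 2 only. The p-values of Slc22a27 against week 0, and those of Slc22a26 at week 7, are therefore a description. Both genes are still counted among the called genes below. Transcript windows shared with other genes made up 0.56% for Slc22a26 and 7.31% for Slc22a27.

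**Figure D1:**
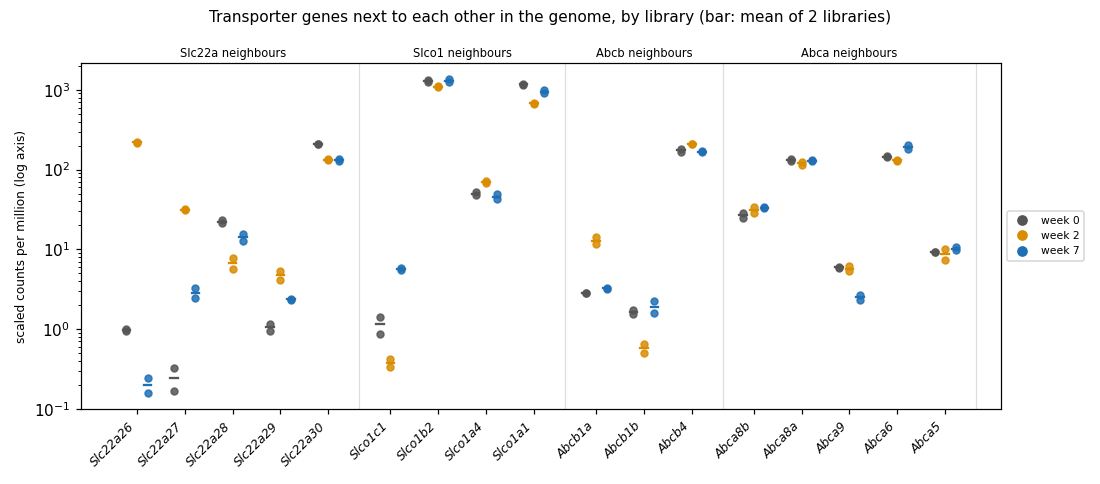
Scaled CPM (log axis) of transporter genes that neighbour each other on chromosomes 19, 6, 5 and 11, in genome order; each point is 1 library, grey for week 0, orange for week 2 and blue for week 7, and bars are means of 2 libraries. Slc22a26 stands at 223 and 215 CPM at week 2 and at or below 1.00 CPM in the other libraries, while its neighbour Slc22a30 is highest at week 0.

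All of the transporter genes were then read against the whole table. The low-count filter kept 70 of the 72, and Abca14 (13 counts at most) and Slc10a6 (16 at most) were not tested. Abca17 and Slc22a12 passed it through 1 week only. At week 7 against week 0, 15 of the 70 rose and 10 fell (edgeR's quasi-likelihood test on the whole table, Benjamini-Hochberg adjusted p under 0.05), or 35.7%, where 13.8% of all 15368 genes tested were called, 7.58% higher and 6.23% lower. The tested transporter genes had a median level of 35.6 CPM against 9.01 CPM for all genes tested, and whether their level bears on this share was not tested. Their median log2 fold change was 0.11, against 0.00 for all genes. Of the 25 called genes 12 changed by more than 2-fold, and the matching count among all called genes was not taken. Fewer transporter genes were called higher without week 7 replicate 1, a run that also called a smaller share of all genes. At an adjusted p under 0.01, 24.3% of the tested transporter genes and 6.56% of all genes were called.

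**Figure D2:**
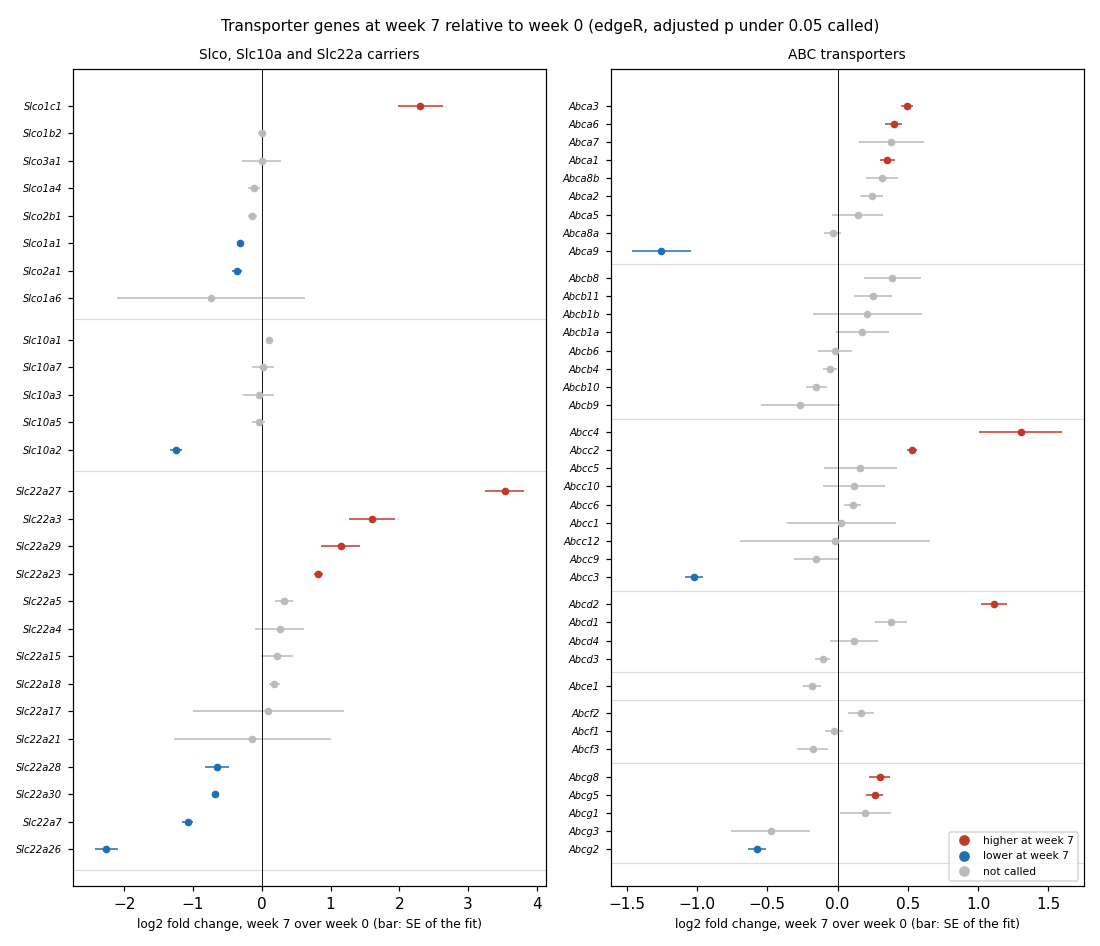
Log2 fold change at week 7 over week 0 for tested transporter genes, grouped by family, with bars for the SE of the fit; red is called higher, blue called lower and grey not called. Abca17 and Slc22a12 are left out because they had 0 counts at week 0. Among the genes shown the Slc22a family spans the widest range, from -2.26 for Slc22a26 to 3.53 for Slc22a27. Both ends rest on few counts, 13 and 8 for Slc22a26 at week 7 and 16 and 8 for Slc22a27 at week 0.

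Among the genes of basolateral uptake, Slco1a1 and Slc22a7 fell at week 7 against week 0. Slc10a1 (ENSMUSG00000021135), the main sodium-dependent bile acid carrier of hepatocytes, had 425 and 413 CPM at week 0, 449 and 438 CPM at week 2, and 439 and 463 CPM at week 7. Its level was 1.08-fold higher at week 7, which was not called (log2 fold change 0.11 ± 0.04 SE, adjusted p = 0.126). With libraries scaled by total counts only it was called, at a log2 fold change of 0.14 (adjusted p = 0.0424). Slco1b2, which takes up bile acids, bilirubin and many drugs without sodium, had 1339.9 and 1264 CPM at week 0, 1125 and 1072 CPM at week 2, and 1238 and 1373 CPM at week 7. Its weeks 7 and 0 overlapped and differed by a log2 fold change of 0.00 ± 0.06 SE (adjusted p = 0.983). Slco1a1, an organic anion carrier, had 1199 and 1149 CPM at week 0, 692 and 669.9 CPM at week 2, and 904 and 988 CPM at week 7, so that no week overlapped another. It fell 1.24-fold at week 7 against week 0 (adjusted p = 0.00269).

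Slc22a7, which carries organic anions and cyclic GMP, had 161 and 164 CPM at week 0, 53.9 and 62.9 CPM at week 2, and 78.6 and 75.3 CPM at week 7. It fell 2.11-fold at week 7 against week 0 (log2 fold change -1.08 ± 0.08 SE, adjusted p = 4.51e-05). Slco1a4, a further organic anion carrier, averaged 45.7 ± 4.41 CPM at week 7 and 49.6 ± 2.85 CPM at week 0 (SD, n = 2 each), and Slco2b1, a carrier of steroid sulphates, averaged 104 ± 2.45 CPM at week 7 and 114 ± 2.12 CPM at week 0. Neither was called (adjusted p = 0.467 and 0.218).

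**Figure D3:**
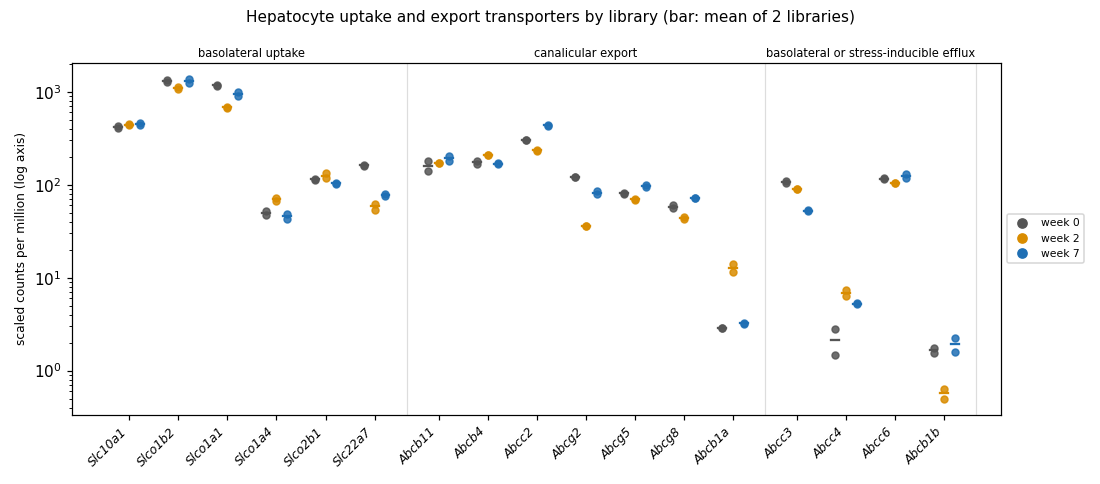
Scaled CPM (log axis) of basolateral uptake, canalicular export and basolateral or stress-inducible efflux genes; each point is 1 library of week 0 (grey), week 2 (orange) or week 7 (blue), and bars are means of 2 libraries. Abcc2 stands at 433 and 444 CPM at week 7, above all other libraries, and Abcc3 at 51.7 and 53.4 CPM, below all other libraries.

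Among 7 genes of canalicular export 3 rose and 1 fell at week 7 against week 0, where 7.58% of all genes tested were called higher and 6.23% lower. Abcc2 (ENSMUSG00000025194), which exports bilirubin glucuronides and other conjugates into bile, had 306 and 303 CPM at week 0, 234 and 236 CPM at week 2, and 433 and 444 CPM at week 7. The weeks were far apart relative to the libraries of each week, and the rise at week 7 was 1.44-fold (log2 fold change 0.53 ± 0.04 SE, adjusted p = 3.6e-05). Abcg2, an exporter of urate, porphyrins and drugs, had 121 and 123 CPM at week 0, 35.9 and 35.98 CPM at week 2, and 78.9 and 84.8 CPM at week 7. It fell 1.49-fold at week 7 against week 0 (adjusted p = 0.000572).

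The export pump for bile acids themselves, Abcb11, had 141 and 182 CPM at week 0, 172 and 171 CPM at week 2, and 204 and 181 CPM at week 7. Weeks 7 and 0 overlapped and the difference was not called (1.19-fold higher at week 7, adjusted p = 0.314). Without week 0 replicate 2, the higher of its pair, it was called at a log2 fold change of 0.45 (adjusted p = 0.0125). Abcb4, which moves phosphatidylcholine into bile, averaged 168 ± 2.47 CPM at week 7 and 174.5 ± 10.8 CPM at week 0 (SD, n = 2 each) and was not called (adjusted p = 0.564).

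Abcg5 and Abcg8 encode the 2 proteins that together export sterols into bile. By the RefSeq start sites used here their genes lie head to head on chromosome 17. The 109 bases between these start sites are shown because the sites face away from each other and both genes had the same order of weeks. In GENCODE M21 the Abcg8 gene begins at base 84676302, inside Abcg5, which reaches to base 84683011. How reads from the overlap were divided was not tested. The stretch (RefSeq, GRCm38.p6, chr17:84683012-84683120, plus strand, the sense strand of Abcg8) has the letters GATAA, which GATA factors recognise, on its minus strand at positions 17 and 47, marked by capitals as TTATC.
Abcg5 to Abcg8: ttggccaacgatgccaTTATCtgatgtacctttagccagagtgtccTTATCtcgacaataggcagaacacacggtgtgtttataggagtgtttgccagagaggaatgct
Over both strands GATAA was in 22.58% of all windows of 250 bases before a start. Abcg5 had 80.5 and 80.7 CPM at week 0, 69.1 and 70.6 CPM at week 2, and 98.4 and 95.1 CPM at week 7. Abcg8 had 60.8 and 55.7 CPM at week 0, 43.1 and 45.3 CPM at week 2, and 71.5 and 71.8 CPM at week 7. For both genes the weeks stood in the same order without overlap, lowest at week 2 and highest at week 7.

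Against week 0, week 7 was 1.20-fold higher for Abcg5 (adjusted p = 0.0193) and 1.23-fold higher for Abcg8 (adjusted p = 0.03). The Abcg5 call was lost without week 0 replicate 1 (0.0897) or 2 (0.0827) and without week 7 replicate 1 (0.0865). The Abcg8 call was lost without week 0 replicate 1 (0.0502) or 2 (0.163) and without week 7 replicate 1 (0.0986) or 2 (0.101). Set against week 2, week 7 was 1.39-fold higher for Abcg5 (adjusted p = 0.000663) and 1.62-fold higher for Abcg8 (adjusted p = 0.000246). At week 2 against week 0 Abcg8 fell by 0.40 on the log2 scale (adjusted p = 0.00624) and Abcg5 by 0.21 (adjusted p = 0.0418). The Abcg5 call at week 2 was lost with upper-quartile scaling (0.0728), with total counts only (log2 fold change -0.12, 0.251), with only the 4 libraries compared (0.052), without week 0 replicate 1 (0.133) or 2 (0.14), without week 2 replicate 1 (0.175) or 2 (0.12), and without week 7 replicate 2 (0.0517).

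The 6 genes of basolateral or stress-inducible efflux held 1 that rose and 1 that fell at week 7 against week 0. The shares over all genes tested were 7.58% higher and 6.23% lower. Abcc3, which returns glucuronides from hepatocytes to blood, had 104 and 109.6 CPM at week 0, 90.9 and 90.0 CPM at week 2, and 51.7 and 53.4 CPM at week 7. It was lowest in both week 7 libraries and fell 2.03-fold (log2 fold change -1.02 ± 0.06 SE, adjusted p = 1.58e-05). Abcc4, which exports cyclic nucleotides and, with glutathione, bile acids, had 2.78 and 1.47 CPM at week 0, 7.35 and 6.31 CPM at week 2, and 5.22 and 5.30 CPM at week 7. Its week 0 libraries were low and apart. It rose 2.47-fold at week 7 (adjusted p = 0.02), a call lost without week 0 replicate 2 (0.0646) and without week 7 replicate 1 (0.0772) or 2 (0.0769). Abcc6, whose loss causes mineral deposits in soft tissue, averaged 125 ± 8.62 CPM at week 7 and 116 ± 2.18 CPM at week 0 (SD, n = 2 each), and was not called (adjusted p = 0.298).

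Of 9 genes of cellular lipid and cholesterol export 3 rose and 1 fell at week 7 against week 0. The shares over all genes tested were 7.58% higher and 6.23% lower. Abca1, which loads cellular cholesterol onto apolipoprotein A1, had 133 and 128 CPM at week 0, 83.7 and 83.3 CPM at week 2, and 163 and 171 CPM at week 7. The weeks did not overlap, and week 7 was 1.28-fold higher than week 0 (adjusted p = 0.00263) and 2.00-fold higher than week 2 (adjusted p = 2.95e-06). Abca3, known from the lipid stores of lung surfactant, had 206 and 210.0 CPM at week 0, 227 and 228 CPM at week 2, and 299.99 and 285 CPM at week 7. It rose 1.41-fold at week 7 against week 0 (adjusted p = 0.000126). Abcg1, which like Abca1 moves cholesterol out of cells, averaged 7.24 ± 0.784 CPM at week 7 and 6.31 ± 0.927 CPM at week 0 (SD, n = 2 each), a difference within the spread of the libraries (adjusted p = 0.558).

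The genes Abca8b, Abca8a, Abca9, Abca6 and Abca5 neighbour each other on chromosome 11 and moved differently. Abca6 had 149.8 and 142 CPM at week 0, 133 and 128 CPM at week 2, and 183 and 201 CPM at week 7, and rose 1.32-fold at week 7 against week 0 (adjusted p = 0.00279). Its neighbour Abca9 had 6.07 and 5.80 CPM at week 0, 5.33 and 6.13 CPM at week 2, and 2.69 and 2.29 CPM at week 7, and fell 2.39-fold (adjusted p = 0.0048). Abca8b, Abca8a and Abca5 had log2 fold changes of 0.32, -0.04 and 0.14 and were not called. In bulk RNA fewer cells of a type and less RNA per cell cannot be told apart. Of 6 stellate cell markers 1 rose and 3 fell at week 7 against week 0, with a summed level of 115 and 119 CPM at week 7 and 164 and 145 CPM at week 0. The called falls were in Lrat, Hgf and Colec10, by 2.13, 1.55 and 1.04 on the log2 scale, and Reln rose by 0.68. The part of stellate cells in the Abca9 value was not tested.

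The bile acid carrier Slc10a2, best known from the ileum and bile ducts, fell in both later weeks. It had 70.05 and 69.96 CPM at week 0, 44.6 and 40.8 CPM at week 2, and 28.6 and 30.3 CPM at week 7. No week overlapped another, and the fall at week 7 against week 0 was 2.38-fold (log2 fold change -1.25 ± 0.08 SE, adjusted p = 2.41e-05). Of 6 bile duct markers 5 were tested at week 7 against week 0, and 1, Krt19, was called. It had 4.52 and 4.67 CPM at week 7 and 0.280 and 0.746 CPM at week 0 (log2 fold change 3.16, adjusted p = 0.0011). Epcam, Spp1, Sox9 and Krt7 went the other way without a call, with log2 fold changes of -1.16, -0.35, -0.33 and -0.01. Spp1 made up most of the list's summed level, which was 19.3 and 19.7 CPM at week 0, 30.2 and 36.8 CPM at week 2, and 19.2 and 19.5 CPM at week 7. Cftr had 0 CPM in all libraries but week 7 replicate 1, and the part of bile duct cells in the Slc10a2 values was not tested. The remaining Slc10a genes tested (Slc10a3, Slc10a5 and Slc10a7) had log2 fold changes between -0.05 and 0.02 at week 7 against week 0. Slco2a1, a prostaglandin carrier, had 62.8 and 66.3 CPM at week 0, 67.3 and 67.0 CPM at week 2, and 49.3 and 51.0 CPM at week 7, and fell 1.29-fold at week 7 against week 0 (adjusted p = 0.00899). This call was lost without week 0 replicate 2 (0.0602) and without week 7 replicate 1 (0.0501). Of 6 markers of liver sinusoidal endothelium 1 was called, lower, in that comparison, with a summed level of 229 and 242 CPM at week 7 and 247 and 256 CPM at week 0, and the part of these cells in the Slco2a1 value was not tested.

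Slco1c1, the thyroxine carrier of the blood-brain barrier, had 0.861 and 1.43 CPM at week 0, 0.333 and 0.422 CPM at week 2, and 5.80 and 5.55 CPM at week 7. Its week 7 libraries lay well above the rest, and the rise over week 0 was 4.95-fold (log2 fold change 2.31 ± 0.33 SE, adjusted p = 0.00227). Slc22a3, an organic cation carrier, had 1.72 and 0.974 CPM at week 0, 4.68 and 6.04 CPM at week 2, and 4.74 and 3.46 CPM at week 7. It rose 3.04-fold at week 7 against week 0 (adjusted p = 0.0131), a call lost without week 0 replicate 2 (0.0618) and without week 7 replicate 1 (0.0808). Slc22a23, an orphan carrier, had 64.4 and 60.3 CPM at week 0, 65.0 and 61.0 CPM at week 2, and 111 and 109 CPM at week 7. It stood apart from both earlier weeks at week 7 alone, 1.76-fold higher than at week 0 (adjusted p = 9.58e-05).

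Slc22a12, the renal urate carrier, named after its values were seen, had 0 counts in both week 0 libraries, 4 and 0 counts in the week 2 libraries, and 81 and 63 counts in the week 7 libraries. Against a floor of 12 counts (about 3 read pairs) in each week 0 library it was at least 5.59-fold higher at week 7. It passed the low-count filter through week 7 only, the group where it was high, so this is a description, although it is counted among the 15 genes that rose. Such floors cover counting error only. Of 4 carnitine and cation carriers 1, Slc22a3, rose at week 7 against week 0, where 7.58% of all genes tested were called higher. The carnitine carrier Slc22a5 averaged 26.0 ± 1.37 CPM at week 7 and 20.8 ± 1.70 CPM at week 0 (SD, n = 2 each) and was not called (adjusted p = 0.154). Its transcripts share 12.86% of their 100-base windows with Slc22a21.

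Over all genes tested 7.58% were called higher at week 7 against week 0, and of the 5 peroxisomal and lysosomal members 1 rose. It was Abcd2, a peroxisomal transporter of very long chain fatty acids, with 12.2 and 12.5 CPM at week 0, 76.2 and 73.8 CPM at week 2, and 25.0 and 28.6 CPM at week 7. The weeks were well separated, and week 7 was 2.17-fold higher than week 0 (log2 fold change 1.12 ± 0.09 SE, adjusted p = 0.000107). Abcd3, the most abundant peroxisomal member, which carries branched fatty acids and bile acid intermediates, averaged 424 ± 28.8 CPM at week 7 and 456 ± 20.1 CPM at week 0 (SD, n = 2 each) and was not called (adjusted p = 0.233). None of the mitochondrial transporters Abcb6, Abcb8 and Abcb10 and none of the 4 ATPases of translation (Abce1, Abcf1, Abcf2 and Abcf3) was called at week 7 against week 0, with log2 fold changes from -0.15 to 0.39 and from -0.18 to 0.17. At an unadjusted p under 0.05 in edgeR there were 0 of these mitochondrial transporters and 1 of the ATPases, Abce1, which was lower at week 7. DESeq2 and limma voom each called 0 in both groups.

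At week 2 against week 0, 11 of the 70 tested genes rose and 18 fell, or 41.4% called, where 18.6% of all genes were called, 9.81% higher and 8.81% lower. Scaled by total counts only, 15 rose and 14 fell, and that scaling moved the median log2 fold change of all genes to 0.11. These differences go with time and with the sex typing together. Beside Slc22a26 and Slc22a27, Abcd2 rose 6.07-fold (adjusted p = 2.1e-07) and Slc22a29 rose 4.47-fold (adjusted p = 0.000803). Abcb1a, which like Abcb1b encodes a P-glycoprotein, an exporter of many drugs, rose 4.48-fold (adjusted p = 7.07e-05). Slc22a28 fell 3.31-fold (adjusted p = 0.000222) and Slc22a30 1.57-fold (adjusted p = 2.31e-05).

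The 3 neighbours Abcb1a, Abcb1b and Abcb4 on chromosome 5 moved in different directions at week 2. Abcb1a had 2.84 and 2.86 CPM at week 0, 14.1 and 11.5 CPM at week 2, and 3.20 and 3.25 CPM at week 7. Abcb1b had 1.74 and 1.55 CPM at week 0, 0.50 and 0.641 CPM at week 2, and 1.59 and 2.23 CPM at week 7, and fell 2.89-fold at week 2 against week 0 (adjusted p = 0.0319). That call was lost with limma voom (0.0658), with only the 4 libraries compared (0.0595), without week 0 replicate 1 (0.109) or 2 (0.0713), and without week 2 replicate 1 (0.152) or 2 (0.0862). Abcb4 had 182 and 167 CPM at week 0, 211 and 207 CPM at week 2, and 169.8 and 166 CPM at week 7, and rose 1.20-fold at week 2 against week 0 (adjusted p = 0.00851). It was not called without week 0 replicate 2 (0.0635) or week 2 replicate 1 (0.0618). Abcb1a shares 9.23% of its transcript windows with other genes, chiefly Abcb1b.

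Among the uptake carriers the week 2 libraries held less Slc22a7, which fell 2.78-fold against week 0 (adjusted p = 2.48e-06), and less Slco1a1, which fell 1.72-fold (adjusted p = 5.45e-06). Slco1a4, next to Slco1a1 on chromosome 6, moved the other way and rose 1.41-fold (adjusted p = 0.00512), with 71.9 and 67.7 CPM at week 2 against 51.6 and 47.6 CPM at week 0. Of 7 canalicular exporters 2 rose and 4 fell at week 2 against week 0, where 9.81% of all genes tested were called higher and 8.81% lower. Abcg2 fell 3.38-fold (log2 fold change -1.76 ± 0.07 SE, adjusted p = 2.19e-07), the largest fall among the canalicular exporters, and Abcc2 fell 1.30-fold (adjusted p = 0.00014). Both were higher again at week 7 than at week 2, Abcg2 by 2.28-fold (adjusted p = 3.33e-06) and Abcc2 by 1.87-fold (adjusted p = 5.34e-07).

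Some members inside the cell fell at week 2 as well. Abcb10, a mitochondrial transporter needed for heme synthesis, averaged 28.4 ± 1.40 CPM at week 2 and 60.4 ± 0.111 CPM at week 0 (SD, n = 2 each), a 2.12-fold fall (adjusted p = 1.48e-05). Abce1, which splits ribosomes for reuse, fell 1.35-fold (adjusted p = 0.00188). At week 7 Abcb10 was 1.91-fold higher than at week 2 (adjusted p = 4.21e-05), and its 54.5 and 54.3 CPM stood just below the 60.3 and 60.5 CPM of week 0 without a call (adjusted p = 0.23).

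At week 7 against week 2, 20 of the 70 rose and 14 fell, or 48.6%, where 19.8% of all genes were called, 10.1% higher and 9.73% lower. This comparison shares its week 7 and week 2 libraries with the others. Slco1c1 was higher at week 7 by a log2 fold change of 3.90 (adjusted p = 0.000105), and Slc22a23 by 0.80 (adjusted p = 5.09e-05). Slc22a26 fell by 10.08 on the log2 scale (adjusted p = 8.02e-10), Slc22a27 by 3.46 (adjusted p = 7.85e-06), Abcb1a by 1.99 (adjusted p = 0.000115) and Abcd2 by 1.49 (adjusted p = 7.43e-06). In all, 29 of the 70 tested genes were called in no comparison, and 15 in all of them. The matching counts over all genes were not taken, so these counts do not set the transporter genes apart.

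Between genes, levels were compared per kilobase of exon. Slco1b2 was the most abundant member at weeks 0 and 7, with 264 CPM per kb at week 0, 223 at week 2 and 265 at week 7. Shares are given of the summed length-scaled level of all 72 genes, at weeks 0, 2 and 7. Slco1a1 held 14.2%, 8.59% and 11.1% and Slc10a1 12.1%, 13.4% and 12.7%. Slc22a26 held 0.021% at week 0, 4.94% at week 2 and 0.004% at week 7.

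**Figure D4:**
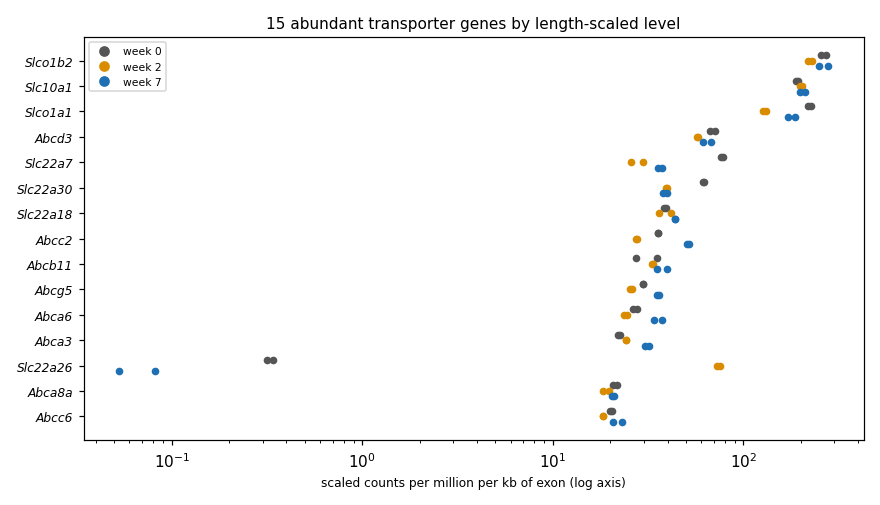
Scaled CPM per kb of exon (log axis) in each library for 15 abundant transporter genes; points are libraries of week 0 (grey), week 2 (orange) and week 7 (blue). Among the genes shown the uptake carriers Slco1b2, Slc10a1 and Slco1a1 lead, and Slc22a26 spans the widest range.

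Other genes of bile acid and drug handling, which are not in these families, were listed with the study's earlier results known: enzymes, nuclear receptors, accessory proteins and further carriers. Of 23 tested 4 rose and 7 fell at week 7 against week 0, with a median log2 fold change of -0.07. Over all genes tested 7.58% were called higher and 6.23% lower. The falls include Slc51b (edgeR adjusted p = 0.047) and Slc47a1 (0.0468). Both calls were lost with limma voom (0.139 and 0.0626) and with only the 4 libraries compared (0.176 and 0.0912), among other alternatives. Slc51b had only 0.961 and 1.04 CPM at week 0 and 0.259 and 0.391 CPM at week 7. Cyp7a1, the rate-limiting enzyme of bile acid synthesis, had 75.0 and 68.9 CPM at week 0, 146 and 155 CPM at week 2, and 125 and 137 CPM at week 7. It rose at week 7 against week 0 by a log2 fold change of 0.87 (adjusted p = 8.40e-05). Cyp8b1, Cyp27a1 and Cyp7b1, further enzymes of the pathway, fell by 0.40, 0.25 and 0.53 on the log2 scale (adjusted p = 0.00663, 0.00481 and 8.17e-05). Cyp7b1, whose male level is known to be higher in mice, had 466 and 448 CPM at week 0, 80.9 and 78.9 CPM at week 2, and 309 and 322 CPM at week 7.

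Nr0b2, which encodes the repressor SHP, had 36.7 and 35.2 CPM at week 0, 15.9 and 16.4 CPM at week 2, and 26.1 and 24.1 CPM at week 7, and fell by 0.52 on the log2 scale at week 7 against week 0 (adjusted p = 0.00763). The call of Nr0b2 was lost without week 0 replicate 1 (0.0514) and without week 7 replicate 2 (0.0524). Nr1h4, the bile acid receptor FXR that induces it and Abcb11, fell by 0.28 (adjusted p = 0.0227), a call lost without week 0 replicate 1 (0.0808) or 2 (0.105) and without week 7 replicate 1 (0.108). Pdzk1, a scaffold for carriers at the membrane, rose by 0.30 (adjusted p = 0.00962), and was not called without week 0 replicate 2 (0.0614). Slc51a, a subunit of the basolateral bile acid exporter, had 0 CPM in every library.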

How the data were processed

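Poly-A RNA of mouse liver cells was sequenced in 6 libraries, 2 each at weeks 0, 2 and 7. The deposited values are estimated counts per gene, made by the authors. Bowtie 0.12.2 and the build mm8 are named per the submitters' processing notes, with no role, and which counter and gene models were used is not given in the sources used here. All deposited counts were whole, and many were steps of about 4, so that 1 read pair may stand for about 4 counts. Library totals ran from 49353453 to 58434358 counts. Gene symbols came from GENCODE M21, which matched 54409 of 54446 genes, and promoters from RefSeq (GRCm38.p6), with an entry for 56 of the 72 transporter genes.

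Counts were scaled by TMM, filtered with filterByExpr and tested with edgeR 4.0.16 (R 4.3.3, robust quasi-likelihood fit, 1 coefficient a week, 3 residual degrees of freedom), with p-values adjusted over all 15368 genes tested. DESeq2 1.42.0, limma 3.58.1 voom, other scalings and filters, a block on the replicate number, counts divided by 4 and leaving out each library were alternatives. On simulated data for week 7 against week 0, 100 of 15368 genes were changed 2-fold and 100 were changed 4-fold. All of these lay above 1 CPM at week 0, and week 2 was simulated as equal to week 0. There edgeR recovered 71% of 2-fold and 92% of 4-fold changes, and 11.9% of its calls were false. Changes in genes at lower levels were not simulated, and these shares hold for this setting only. The genes, the role lists and the marker lists were chosen with earlier results of these data known. Genes are named from a panel of well-known carriers and, for each family and comparison, up to 3 called genes in each direction by adjusted p. Neighbours of named genes, untested genes and the members completing a described list are named beside them, after their values were seen. Figures were drawn with matplotlib 3.10.9. Single values of some transporter genes are not reported here, though counts over the families include them.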

Additional observations from a re-analysis of the deposited data

How the results depend on the processing

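At week 7 against week 0 the count of transporter genes that rose was 15. It fell or stayed the same when 1 library was left out, and was lowest without week 7 replicate 1. In that run the share called over all genes was lower as well. At an adjusted p under 0.01 the count was 8. There 24.3% of the tested transporter genes and 6.56% of all genes were called in either direction, against 35.7% and 13.8% in the main run. The count that fell, and the counts of the other comparisons, stayed within 1.5 times their values under each alternative run. Deviations of same-numbered libraries from their week means correlated at -0.0019, -0.0146 and -0.0130, which did not show a pairing by replicate number. With 2 libraries a week these values cannot exclude a pairing. With a replicate block 13 rose and 9 fell at week 7 against week 0, 11 and 17 at week 2 against week 0, and 19 and 15 at week 7 against week 2. Of all genes tested, 11.1%, 15.9% and 17% were then called in these comparisons. The block ended the calls of Slc22a28 (adjusted p = 0.0747) and Abcg8 (0.0604) at week 7 against week 0 and of Abcg5 (0.0766) at week 2 against week 0. No named transporter gene reversed. Of the called named genes, 15 of 25, 19 of 29 and 23 of 34 kept their call in every alternative in the same order of comparisons. Where calls were lost beyond those given with each gene, the cause was not tested. The number of libraries, 2 a week, limits the precision of each value.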
